A study of Mus musculus with 15 samples.

Results

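Th-MYCN neuroblastomas that arose late were compared with those that arose early. Of 15 mouse tumors in the series, 8 were neuroblastomas, and the labels give an age at onset for each. The 3 late onset tumors had an onset of 18 weeks or more. They were MYCN175, wild type for Casp2, at 21 weeks, and MYCNC2ko144 and MYCNC2ko176, both Casp2-/-, at 18 and 24 weeks. The 5 early onset tumors had an onset of 15 weeks or less. They were the wild type tumors MYCN235, MYCN332 and MYCN391, at 13, 10 and 15 weeks, and the Casp2-/- tumors MYCNC2ko118 and MYCNC2ko180, both at 15 weeks. The classes hold unequal shares of the genotypes, and only 1 late tumor is wild type. Casp2 genotype was therefore a term of the model.

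All 8 mice carried the Th-MYCN transgene, in which the tyrosine hydroxylase promoter drives MYCN in cells of the sympathetic lineage, on a mixed Sv129/C57BL6 background. The tissue was a paraspinal thoracic tumor with little or no visible vascularization, and each library came from the tumor of a different mouse. Ages of the mice other than the age at onset were not used. The study lists all 3 late mice as female, and of the early mice MYCN332 and MYCNC2ko118 as female and the other 3 as male. Sex and onset are thus partly confounded, because no late mouse was male. Libraries held 10353787 to 17638029 reads on genes in the strand column used, so 3 reads correspond to 0.170 to 0.290 CPM, the reads of a gene scaled to the size of the library. These are counting limits only. In bulk tissue, fewer cells of a type and less RNA per cell cannot be told apart.

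Neuroblastoma is a tumor of the sympathoadrenal lineage of the neural crest. Sympathetic neuroblasts are specified by a set of transcription factors that includes Phox2a, Hand2 and Gata3, and they make catecholamines by an enzyme pathway that starts with tyrosine hydroxylase (Th). In this lineage excess MYCN holds cells in a dividing, poorly differentiated state, and Th-MYCN mice develop tumors at sympathetic ganglia after a delay that varies between animals.

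The neuroblast markers were present in every tumor. Hand2 was at 526 to 1045 CPM and Gata3 at 116 to 376 CPM. Most markers of lymphocytes and neutrophils were near 0, with Cd3e at no more than 0.434 CPM and S100a8 at no more than 0.248 CPM. All 7 neutrophil markers measured, and 13 of 15 T and NK cell markers, stayed below 1 CPM in all 8 tumors, the exceptions being Lck at 2.67 to 13.1 CPM and Cd4 at 4.89 to 10.6 CPM. The summed level of 10 fibroblast markers was 272 to 665 CPM in the late and 319 to 691 CPM in the early tumors, and that of 13 macrophage and myeloid markers 540 to 913 and 426 to 1090 CPM. Skeletal muscle markers summed to 227 CPM in MYCN175 and 428 CPM in MYCNC2ko118, against 7.07 to 12.2 CPM in the other 6 tumors. The 7 adipocyte markers summed to 10.3 to 48.9 CPM in the late and 20.7 to 115 CPM in the early tumors. Casp2 was at 127, 92.1, 74.1 and 106 CPM in the wild type tumors MYCN175, MYCN235, MYCN332 and MYCN391. It was at 80.0, 55.7, 40.7 and 53.9 CPM in MYCNC2ko118, MYCNC2ko144, MYCNC2ko176 and MYCNC2ko180, so the genotypes overlapped. A count over the whole gene does not check a deletion of part of it, and the deleted exons are not given in the sources used here. The study states that it verified the deletion in all its tumors by genotyping and immunoblotting. Ddx3y, Eif2s3y, Kdm5d and Uty, which are Y-linked, were at 9.08 to 72.4 CPM in the mice listed as male and at 0 to 0.309 CPM in the others. Xist, the RNA that silences an X chromosome in female cells, was at 1697 to 3606 CPM in 4 of the 5 mice listed as female and at 36.0 CPM in the late tumor MYCNC2ko176.

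Averaged over pairs, late and early tumors lay further apart than tumors of the same class, but the difference did not pass the test. The distance between 2 tumors was the leading log2 fold change, the root mean square of the log2 differences of the 500 genes that differed most between them. It averaged 3.21 between the classes and 2.93 within them, a difference of 0.27 (2-sided exact permutation test over all 56 splits into 3 and 5 tumors, p = 0.0536, where the smallest p possible is 0.0179). Pairs of late tumors were at 3.16, 3.23 and 3.27, about as far apart as tumors of different classes. The lower average within the classes thus came from the early pairs, at 2.14 to 3.28. The closest pair was MYCN235 and MYCN391 (2.14), both early and wild type. The Casp2-/- tumors MYCNC2ko118, early, and MYCNC2ko144, late, were at 2.39. The largest distance, 3.75, was between MYCN235 and the latest tumor, MYCNC2ko176. The same statistic was 0.35 for a split by genotype (exact permutation p = 0.0571) and 0.07 for a split by sex (p = 0.62).

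Of 13962 genes tested, 1 was higher and 1 was lower in the late tumors by edgeR's quasi-likelihood test, with calls made at a false discovery rate (FDR) below 0.05 and a change of more than 2-fold. That is 0.00716% of the genes in each direction. They were Strc, which rose, and Gm5506, which fell. The less strict likelihood ratio test called 15 genes higher (0.107%) and 20 lower (0.143%). On counts simulated from these tumors, 34 of its 187 calls were false, against 9 of 144 for the quasi-likelihood test. Its FDRs, given below beside those of the quasi-likelihood test, are therefore too small. Unadjusted p-values of the quasi-likelihood test were under 0.05 for 1061 genes. The median log2 fold change over all genes tested was 0.01. In 292 genes (2.09%) every late tumor lay above every early tumor, and in 298 genes (2.13%) every late tumor lay below.

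**Figure D1:**
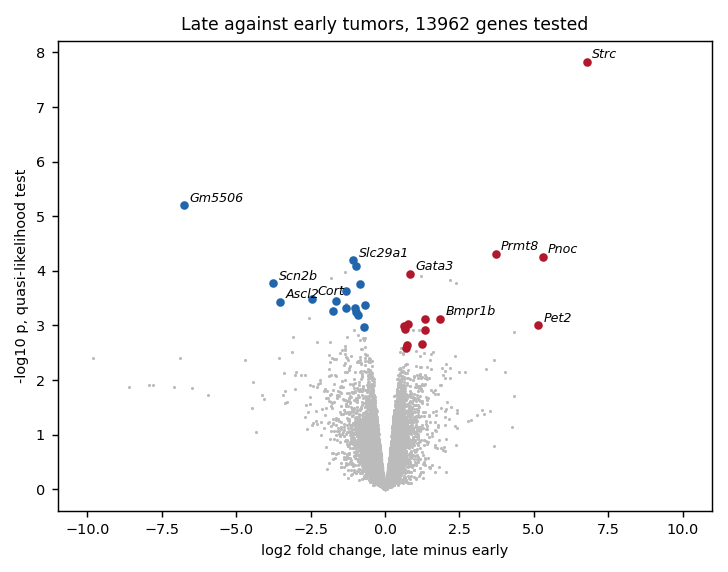
Log2 fold change between late and early neuroblastomas (horizontal axis, late minus early, adjusted for Casp2 genotype) against -log10 of the quasi-likelihood p (vertical axis) for the 13962 genes tested. Grey points are all genes, and red (higher) and blue (lower) points are Gm5506 and 29 of the 30 named genes, whose 3 late and 5 early tumors do not overlap. Strc, at a log2 fold change of 6.79, and Gm5506, at -6.76, stand apart from the rest.

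Strc encodes stereocilin, an extracellular protein of the hair bundles of inner ear sensory cells. It lies on chromosome 2 at 121363728 to 121387168 of GRCm38, on the minus strand. Strc was at 15.9 CPM in MYCN175, 13.8 CPM in MYCNC2ko144 and 19.1 CPM in MYCNC2ko176. In the early tumors it was at 0.143, 0.0563 and 0.184 CPM in MYCN235, MYCN332 and MYCN391, and at 0.144 and 0.161 CPM in MYCNC2ko118 and MYCNC2ko180. All 3 late tumors were thus far above all 5 early ones, in both genotypes. The means were 16.3 ± 2.69 CPM (SD, n = 3) and 0.138 ± 0.0484 CPM (SD, n = 5), the log2 fold change was 6.79 (SE 0.41) and the edgeR quasi-likelihood FDR was 0.000209. The early libraries held 10 Strc reads in all and the late libraries 672. Per read sequenced that is a ratio of 118, with an exact 95% interval of 63.9 to 248 for counting error only. Reads came from both strands alike, with 518, 430 and 375 reads on either strand in the late and 3 to 5 in the early tumors. The call held in 20 of 23 settings, and was lost among females alone (FDR 0.214), with onset in weeks (FDR 0.117) and in the Casp2-/- tumors alone (FDR 0.0589).

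No neighbour of Strc moved with it. Ckmt1, a mitochondrial creatine kinase whose 3' end overlaps that of Strc by 10 bases on the other strand, was at 35.2 to 44.4 CPM in the late and 23.3 to 51.6 CPM in the early tumors. Catsper2, a sperm calcium channel gene 5.46 kb away on the other side, was at 2.97 to 5.75 and 5.34 to 6.43 CPM. Among the 10 nearest genes measured, 5 on each side, none had groups that did not overlap. Strc was at 0 to 0.404 CPM in the 7 lymphomas of the series. Its RefSeq promoter window, 250 bases before to 50 after the start, at chr2:121380891-121381190 on the minus strand of GRCm38.p6, is shown because Strc was the clearest difference. Capitals would mark matches to the motifs described below, and it holds none. The window lies inside the gene span given above, whose end at 121387168 is the 5' end on the minus strand. RefSeq and GENCODE thus differ on where Strc starts, and no window at the GENCODE start was examined.

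Strc: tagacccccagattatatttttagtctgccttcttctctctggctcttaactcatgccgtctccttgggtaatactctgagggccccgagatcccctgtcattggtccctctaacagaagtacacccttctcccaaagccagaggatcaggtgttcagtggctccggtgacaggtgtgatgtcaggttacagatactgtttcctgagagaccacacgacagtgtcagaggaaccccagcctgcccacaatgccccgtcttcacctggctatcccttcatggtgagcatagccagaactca

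Gm5506 is named Eno1b in GENCODE M21, after the glycolytic enzyme gene Eno1 whose sequence it shares, and lies on chromosome 18 at 48045335 to 48048412 of GRCm38, on the plus strand. It was at 0 CPM in MYCN175, 0.310 CPM in MYCNC2ko144 and 0 CPM in MYCNC2ko176. In the early tumors it was at 7.24, 10.2 and 7.48 CPM in the wild type and 16.2 and 12.9 CPM in the Casp2-/- tumors, so the classes did not overlap. The log2 fold change was -6.76 (SE 0.82, quasi-likelihood FDR 0.0440). The late libraries held 5 reads and the early ones 790, a ratio per read sequenced of 89.8 (exact 95% interval 38.3 to 277, counting error only). The 7 lymphomas, which are on a C57BL/6 background, were at 0 to 0.342 CPM. This gene is uncertain, because its transcript of 1791 bases is 94.6% identical to that of Eno1. Of its windows of 50 bases, the read length, 75.3% occur without a mismatch in Eno1 transcripts. Eno1 itself had 0 reads in the strand column used in all 15 tumors, and 16 to 97 reads in the column for the other strand. Reads from the windows shared with Eno1 cannot be assigned to either gene by their letters, while the other windows differ. The Eno1 reads on the other strand numbered 74, 97 and 36 in the late and 53 to 92 in the early tumors. Whether Eno1 adds reads to Gm5506 was not tested. The call of Gm5506 held in 11 of 25 settings tried, itself included, with FDRs of up to 0.322.

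**Figure D2:**
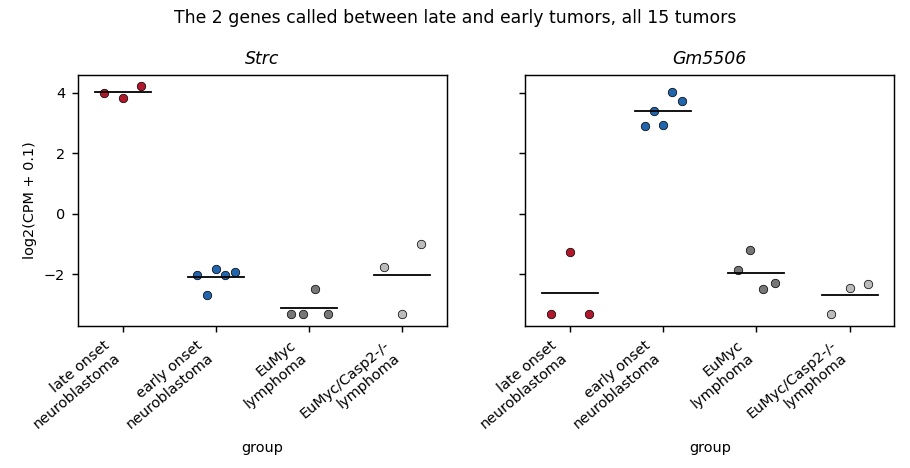
Level of Strc (left) and Gm5506 (right) as log2(CPM + 0.1) in the 3 late and 5 early neuroblastomas and, for comparison, the 4 EuMyc and 3 EuMyc/Casp2-/- lymphomas. Each point is a tumor and each line the mean of its group. Strc is high in the late tumors only, and Gm5506 in the early tumors only, of these 4 groups.

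The genes described next were chosen by a rule, the smallest quasi-likelihood p among genes without overlap between the classes, 15 in each direction. Apart from Strc none of them passed an FDR of 0.05 in the quasi-likelihood test, and their FDRs run from 0.177 to 0.594. With Strc, 17 of the 30 passed both thresholds of the likelihood ratio test. Their values are given as levels, and the lack of overlap follows from the rule.

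Of the named genes higher in late tumors, Pnoc, which encodes the precursor of the neuropeptide nociceptin, was at 156, 33.9 and 523 CPM in MYCN175, MYCNC2ko144 and MYCNC2ko176. The early tumors had 2.70 to 9.72 CPM. The log2 fold change was 5.29 (SE 0.72, quasi-likelihood FDR 0.177, likelihood ratio FDR 8.73e-10), and the 3 late tumors themselves differed more than 10-fold. Prmt8, a brain-enriched arginine methyltransferase, was at 9.82, 3.598 and 16.0 CPM against 0.562 to 1.18 CPM (log2 fold change 3.71, SE 0.51, likelihood ratio FDR 7.32e-07). Neurod1, a proneural transcription factor, was at 57.1, 39.3 and 107 CPM against 19.5 to 32.6 CPM. In Pnoc, Prmt8 and Neurod1 the tumor with the latest onset had the highest and that with an onset of 18 weeks the lowest late level. Strc and Pet2 had this order too. The other named genes higher in late tumors did not, Gata3, Bmpr1b and Pla2g4b among them. Gata3, a defining transcription factor of sympathetic neuroblasts, was at 218, 286 and 376 CPM in the late tumors, at 116 to 122 CPM in the early wild type and at 189 and 192 CPM in the early Casp2-/- tumors. Its log2 fold change was small, 0.83 (SE 0.13, quasi-likelihood FDR 0.177, likelihood ratio FDR 3e-04). Higher late levels within each genotype follow from the rule of no overlap, and MYCN175 is the only late wild type tumor.

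Bmpr1b, a type I receptor for bone morphogenetic proteins, was at 134, 137 and 62.5 CPM in the late tumors. It was at 15.8 to 22.5 CPM in the early wild type and 47.2 and 52.5 CPM in the early Casp2-/- tumors (log2 fold change 1.85, SE 0.39, likelihood ratio FDR 0.000966). Pet2, an X-linked transcript, was at 1.98, 0.993 and 15.3 CPM against 0 to 0.287 CPM, which is near the counting limit. Cxxc4, which binds Dishevelled in the Wnt pathway, was at 34.9 to 47.3 CPM against 23.4 to 29.4 CPM. Pla2g4b, a cytosolic phospholipase A2, was at 19.7 to 44.8 CPM against 6.47 to 15.7 CPM. Pisd-ps1, a transcribed pseudogene, was at 199 to 224 CPM against 55.1 to 161 CPM and is uncertain, since it shares sequence with its parent gene. Another 4, all with a likelihood ratio FDR of 0.0366 or more and less than 2-fold, were Nfu1, an iron-sulfur cluster assembly factor (46.5 to 55.4 against 29.7 to 34.0 CPM), Hmgcll1, an enzyme of ketone body formation (46.9 to 64.0 against 24.4 to 38.2 CPM), Ormdl1, a regulator of sphingolipid synthesis, and Wdsub1.

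Of the named genes lower in late tumors, Mycl1 (Mycl), a Myc family gene, was at 26.1, 28.0 and 35.4 CPM in the late tumors and 45.9 to 66.2 CPM in the early ones (log2 fold change -0.99, SE 0.14, quasi-likelihood FDR 0.177, likelihood ratio FDR 0.000237). Alk, a receptor tyrosine kinase whose activating mutations cause familial neuroblastoma, was at 60.05, 77.5 and 60.4 CPM against 101 to 158 CPM (log2 fold change -0.97, SE 0.18, likelihood ratio FDR 0.00377). Fbxw7, the substrate receptor of a ubiquitin ligase that degrades Myc proteins, was at 86.4, 85.5 and 102 CPM against 136 to 215 CPM. In Mycl1, Alk and Fbxw7 the log2 fold change was below 1 in size. Mycn is no member of the 30 genes. It was at 347, 286 and 236 CPM in the late and at 398 to 420 CPM in the early tumors, again without overlap (log2 fold change -0.47, SE 0.14, edgeR quasi-likelihood FDR 0.594). The 5 early tumors lay within a narrow range whatever their genotype, and the latest tumor had the lowest level. Reads of the endogenous gene and of the transgene cannot be told apart in these counts.

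Slc29a1, an equilibrative nucleoside transporter, had the smallest p of the 15 named genes lower in late tumors. It was at 42.0, 50.5 and 53.8 CPM against 78.7 to 110 CPM (log2 fold change -1.07, SE 0.15, quasi-likelihood FDR 0.177, likelihood ratio FDR 3.77e-05). Scn2b, a beta subunit of voltage-gated sodium channels, was at 1.42, 0.558 and 0.0990 CPM against 3.38 to 26.5 CPM (log2 fold change -3.75, SE 0.57). Cort, the neuropeptide cortistatin, was at 0.682 to 1.29 CPM in the late tumors. It was at 2.15 to 3.26 CPM in the early wild type and 8.34 and 7.95 CPM in the early Casp2-/- tumors. Ascl2, a basic helix-loop-helix factor, was at 0 to 0.432 CPM in the late and 0.482 to 9.14 CPM in the early tumors. In Ascl2 the classes were separated mainly within the wild type tumors, where MYCN175 had 0.432 CPM and the early tumors 4.73 to 9.14 CPM, since all 4 Casp2-/- tumors had 0.647 CPM or less. Efs, an adaptor of Src family kinases, was at 43.4 to 55.8 CPM against 76.1 to 93.9 CPM, and Myh7b, a myosin heavy chain, at 2.42 to 3.47 CPM against 7.36 to 14.01 CPM. Pla2g4e, a second cytosolic phospholipase A2, was at 10.98 to 23.9 CPM against 32.6 to 52.5 CPM. It lies 123 kb from Pla2g4b, which was higher in late tumors, and 1.12 Mb from Strc. The other 5 were Fam160a1, Ng23, Gramd4, Pusl1 and Ccdc88c, the last of which encodes a Dishevelled-binding protein.

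**Figure D3:**
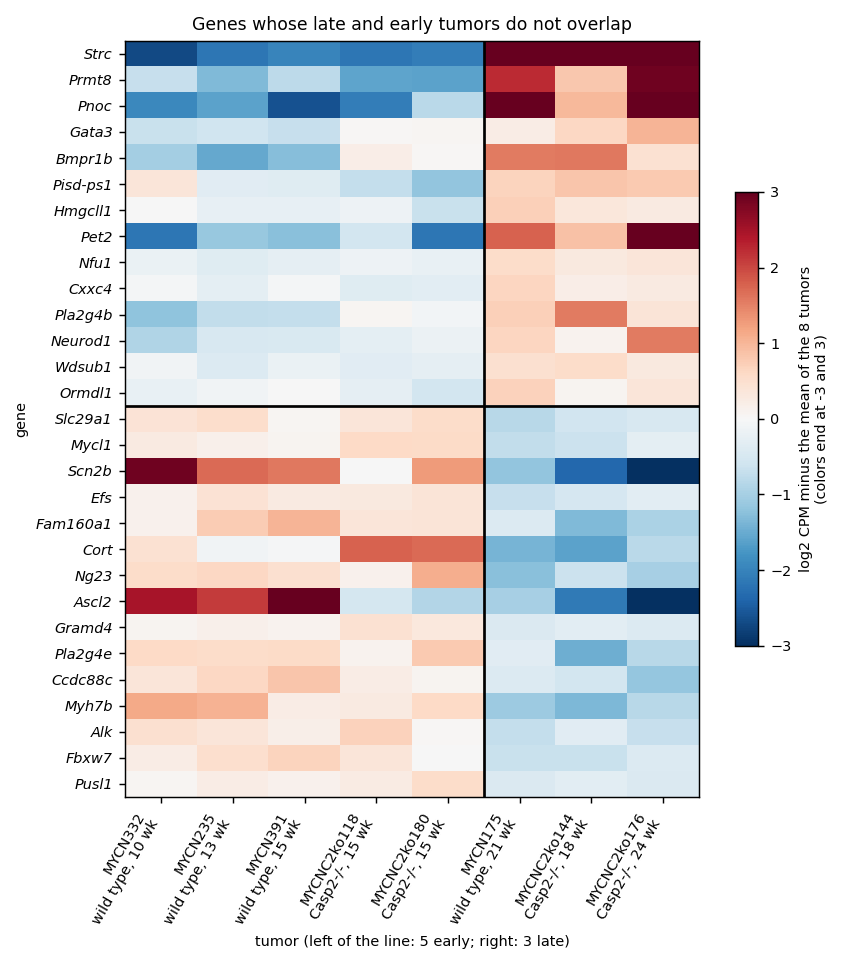
Level of 29 of the 30 named genes in the 8 tumors, as log2 CPM minus the mean of the 8 tumors (color, ending at -3 and 3). Columns are tumors with genotype and age at onset in weeks, early on the left and late on the right of the line, and rows above the line are genes higher in late tumors. Strc, Pnoc, Prmt8 and Pet2 have the largest log2 fold changes above the line (3.71 to 6.79) and Scn2b and Ascl2 below it (-3.75 and -3.52).

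Genes of catecholamine synthesis did not move as a group. Of 14 tested, 7 had positive and 7 negative log2 fold changes, with a median of -0.08 beside 0.01 for all genes. None was called by the quasi-likelihood test. The likelihood ratio test called Th and Pnmt lower, beside 0.143% of all genes tested. Th, the rate-limiting enzyme, was at 317 CPM in the late wild type tumor against 1061, 1146 and 1436 CPM in the early wild type tumors. In the Casp2-/- tumors it was at 131 and 77.9 CPM in the late against 227 and 243 CPM in the early tumors. Levels differed between the genotypes, so the classes overlapped, but late tumors were lower within both (log2 fold change -1.49, SE 0.23, quasi-likelihood FDR 0.181, likelihood ratio FDR 9.65e-05). Pnmt, which makes adrenaline, was at 0 to 0.309 CPM in the late tumors and at 0.287 to 11.6 CPM in the early ones. Ddc and Dbh, which act between Th and Pnmt, had log2 fold changes of 0.57 (SE 0.31) and -0.57 (SE 0.54).

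The neuropeptide Vip had the same kind of pattern as Th. It was at 0 CPM in the late wild type tumor and 0.788, 2.42 and 2.33 CPM in the early ones. In the Casp2-/- tumors it was at 30.1 and 18.2 CPM in the late and 123 and 101 CPM in the early tumors (log2 fold change -2.54, SE 0.50, quasi-likelihood FDR 0.357, likelihood ratio FDR 0.000109). The differences between the genotypes were larger than those between the onset classes. Of the 6 neuropeptide genes tested 2 had positive and 4 negative log2 fold changes, and Vip was the only one called by the likelihood ratio test. Gal, galanin, was higher in late tumors (2.78, 1.24 and 9.90 CPM against 0.736 to 1.29 CPM, log2 fold change 1.88, SE 0.60, FDR 0.594).

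Both genes are known to respond to cyclic AMP through the cyclic AMP response element (CRE) of their promoters, so their RefSeq promoter windows are shown, at chr7:142899946-142900245 on the minus strand for Th and chr10:5638968-5639267 on the plus strand for Vip (GRCm38.p6). Capitals mark the CRE, TGACGTCA, or its core TGACG on either strand, which lies within the CRE.

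Th: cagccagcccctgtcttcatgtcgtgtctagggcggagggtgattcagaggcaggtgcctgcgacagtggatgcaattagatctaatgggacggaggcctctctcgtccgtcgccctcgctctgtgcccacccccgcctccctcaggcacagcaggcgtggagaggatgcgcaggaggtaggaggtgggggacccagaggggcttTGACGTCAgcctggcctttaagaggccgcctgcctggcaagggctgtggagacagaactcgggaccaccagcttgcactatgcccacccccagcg

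Vip: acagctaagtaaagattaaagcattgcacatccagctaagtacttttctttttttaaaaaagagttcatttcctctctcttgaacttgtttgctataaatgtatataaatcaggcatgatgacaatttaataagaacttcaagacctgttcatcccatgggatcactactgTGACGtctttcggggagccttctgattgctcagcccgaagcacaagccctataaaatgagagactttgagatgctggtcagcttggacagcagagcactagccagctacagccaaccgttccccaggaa

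The Th window holds the whole CRE, which occurs in 1.79% of 32851 promoter windows of the same length, and the Vip window holds the core, which occurs in 20.8%. The E-box CACGTG, the sequence that Myc and Max bind, occurs in 7.15% of all windows. Windows were found for 10 of the 15 named genes higher in late tumors and for 13 of the 15 lower ones. The E-box was in those of 1 (Wdsub1) and 4 (Gramd4, Myh7b, Pusl1 and Slc29a1). The core was in those of Prmt8 and of 5 lower genes, among them Alk, Cort and Fbxw7, and the whole CRE in none. Of these, 5 genes had more than 1 window, and a gene was counted if any of its windows matched. The shares over all are per window, so the counts of genes cannot be set against them directly. A match is a description of the letters only.

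**Figure D4:**
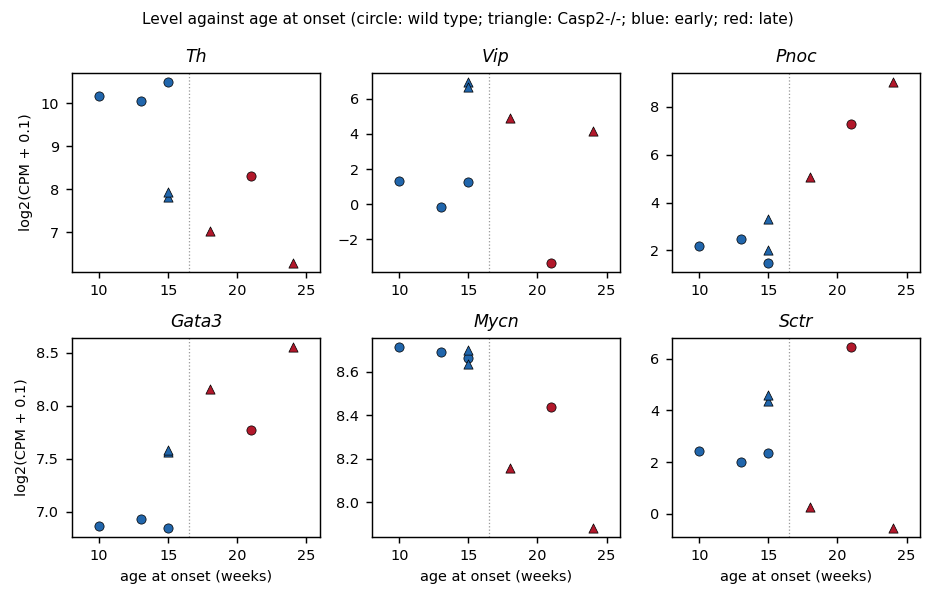
Level of 6 genes as log2(CPM + 0.1) against the age at onset in weeks, by tumor (circles wild type, triangles Casp2-/-, blue early, red late, with a dotted line between the classes). Th and Vip are lower in the late tumors within each genotype, Pnoc and Gata3 are higher and Mycn lower in all late tumors, and Sctr runs in opposite directions in the 2 genotypes.

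None of the gene lists examined held a member called by the quasi-likelihood test. Of 11 sympathoadrenal transcription factors tested, 5 had positive and 6 negative log2 fold changes, with a median of -0.06. Beside Gata3, Phox2a had p under 0.05, with 427, 68.4 and 624 CPM in late against 103 to 226 CPM in early tumors (log2 fold change 1.35, SE 0.58, FDR 0.641), where MYCNC2ko144 was below every early tumor. Of 19 neuronal maturation genes 8 were positive and 11 negative (median -0.07). Gap43, a growth cone protein, was at 1889, 793 and 1718 CPM against 488 to 1216 CPM, and Prph, peripherin, at 0 to 3.47 CPM against 0.245 to 27.6 CPM, and in both the classes overlapped. Of 11 neurotrophin, Ret and Alk family receptors 5 were positive and 6 negative (median -0.11). Gfra2, the receptor for neurturin, was at 14.9 to 52.8 CPM in late and 6.08 to 21.6 CPM in early tumors (log2 fold change 1.01, SE 0.32, FDR 0.594).

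Of the 12 genes of the Myc and Max network 4 were positive and 8 negative, with a median of -0.14. Their summed level was 963 to 1094 CPM in the late and 1175 to 1271 CPM in the early tumors, without overlap. Much of this gap lies in Mycn, which averaged 290 CPM in the late and 410 CPM in the early tumors. Mycn and Mycl1 were the members that did not overlap, both lower, beside 2.13% of all genes tested. The 16 ribosome biogenesis and polyamine genes, textbook targets of Myc, had 7 positive and 9 negative log2 fold changes and a median of -0.06. The sums over all 17 members measured, tested or not, overlapped, at 2925 to 3958 and 2713 to 3633 CPM. The 22 cell cycle genes had a median of 0.05, and none had p under 0.05. The 15 p53 and Arf pathway genes had a median of 0.08. In this list Cdkn1a, the cyclin-dependent kinase inhibitor p21, was at 30.8, 34.9 and 70.5 CPM in late against 45.2 to 117 CPM in early tumors (log2 fold change -0.95, SE 0.30, FDR 0.594), and the death gene Bbc3 had -0.48 (SE 0.20).

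The 14 hypoxia and glycolysis genes tested had a median of 0.01, with 7 in each direction. Adm, adrenomedullin, was at 8.46, 6.39 and 3.86 CPM in the late tumors, 20.8 to 33.4 CPM in the early wild type and 9.99 and 11.3 CPM in the early Casp2-/- tumors, without overlap (log2 fold change -1.29, SE 0.27, FDR 0.531). Vegfa, the main angiogenic ligand, was at 30.2 to 43.6 CPM against 42.9 to 101 CPM (log2 fold change -0.75, SE 0.26, FDR 0.594). The tumors had been chosen for low vascularization. Of 12 endothelial markers 10 had positive log2 fold changes, with a median of 0.20, and only Cldn5 had p under 0.05 (6.05, 3.35 and 9.11 CPM against 1.15 to 4.82 CPM). The sums of the 12 markers overlapped, at 52.6 to 148 and 54.8 to 99.8 CPM.

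Of 14 Wnt components tested 5 were positive and 9 negative (median -0.15). The sums over all 18 members measured, tested or not, did not overlap, at 177 to 213 CPM in late and 234 to 366 CPM in early tumors. Dkk3 was the only member tested with p under 0.05 (2.67 to 5.07 against 1.00 to 2.23 CPM, log2 fold change 1.22, SE 0.42), and it lay in the opposite direction. Of 15 Notch components 5 were positive and 10 negative (median -0.23), with log2 fold changes of -0.86 (SE 0.33) for Notch2 and -0.38 (SE 0.16) for Jag2. The 16 interferon-stimulated genes tested had a median of -0.54, and 11 of them were negative, but no member had p under 0.05. Isg15, a ubiquitin-like modifier, is an example (0.868 to 1.78 against 0.863 to 5.38 CPM). The 10 MHC class I and 7 class II genes had medians of -0.08 and -0.07, the 14 immediate early genes -0.27 and the 9 oncofetal genes -0.12, with no p under 0.05 in any of these 4 lists. Of the cell type lists, adipocyte markers held 1 member with p under 0.05, Cidea (4.47 to 12.1 CPM in late and 6.25 to 87.6 CPM in early tumors), and Schwann and glial markers 1, Mbp (log2 fold change -0.49, SE 0.17).

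Among 31 tested genes that the study names for its comparison of genotypes in neuroblastoma, 7 had p under 0.05 for onset in the quasi-likelihood test. Over all 13962 genes tested, 1061 did. The likelihood ratio test called Th, Vip and Ascl2 lower, beside 20 genes (0.143%) over all. The study picked the 31 genes from the same tumors, so their counts are no independent evidence. Six6, an eye and pituitary homeobox gene, was at 78.8, 6.64 and 166 CPM in the 3 early wild type tumors, 0 CPM in the late wild type tumor and 0 to 0.144 CPM in all 4 Casp2-/- tumors. C1ql3, a secreted synaptic protein, was at 40.4 and 21.5 CPM in the late Casp2-/- tumors, 5.61 and 1.04 CPM in the early ones and 0.430 to 2.04 CPM in the 4 wild type tumors. Shb, a signalling adaptor, was at 13.0 CPM in MYCN175 against 20.1 to 31.2 CPM in the early wild type tumors, and at 6.33 and 5.05 CPM against 9.56 and 9.64 CPM in the Casp2-/- tumors. On the log2 scale MYCN175 was nearer to the mean of the Casp2-/- tumors than to that of the early wild type tumors in 14 of the 31 genes (45.2%), beside 7127 of 13962 genes (51.0%) over all.

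The effect of onset differed between genotypes in 1 gene (0.00716% of those tested) by the quasi-likelihood test of the interaction, Sctr, the receptor for secretin. In wild type tumors it was at 87.3 CPM in the late tumor and 3.87, 5.29 and 5.03 CPM in the early ones. In Casp2-/- tumors it was at 1.12 and 0.594 CPM in the late and 20.3 and 24.1 CPM in the early ones, the opposite order. The log2 interaction, Casp2-/- minus wild type, was -8.84 (SE 0.50, quasi-likelihood FDR 0.00129). Of the genes with the next smallest p, Lingo1, Ntng1 and the pseudogene Gm5801 had FDRs of 0.113, 0.133 and 0.133. In Lingo1 and Ntng1 MYCN175 (5.31 and 9.51 CPM) was far below the early wild type tumors (40.2 to 43.4 and 35.5 to 41.8 CPM), while the late Casp2-/- tumors (10.9 to 12.0 and 17.4 to 21.2 CPM) were above the early ones (8.12 to 10.0 and 9.06 to 9.40 CPM). With 1 late wild type tumor, these values rest on MYCN175, whose spread was taken from the other tumors.

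Because all late mice were female, the 30 named genes were examined with sex in the model. All 30 kept their direction with p under 0.05, and their log2 fold changes were 0.75 to 1.20 times those without the sex term. Strc was still called and Gm5506 was not (FDR 0.153). Among the 5 females alone, 29 of the 30 could be tested, all 29 kept their direction and 27 had p under 0.05. Within the Casp2-/- tumors alone, 25 of the 30 passed the filter on low counts, all 25 kept their direction, and 20 had p under 0.05. There the log2 fold changes were 0.547 to 1.31 times those of all 8 tumors. The lowest ratio was that of Bmpr1b, at a log2 fold change of 1.01 against 1.85, and with MYCN175 left out of the 8 tumors it was 1.005. These genes were chosen on the same tumors, so this describes them and is no separate test.

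With onset in weeks in place of the classes, 4 genes were called higher and 8 lower per 10 weeks, other genes than Strc and Gm5506. The 4 higher genes were Neurod1, Pnoc, Pet2 and the gene model Gm18756. Among the lower ones were Grin1, a subunit of the NMDA receptor (log2 change -1.75 per 10 weeks, FDR 0.0255), Rab3c, a GTPase of synaptic vesicles (-1.45, FDR 0.0282), Dlgap3, a postsynaptic scaffold (-1.30, FDR 0.0255), and Mab21l1 (-4.50, FDR 0.0255). They were chosen after their values were seen. Grin1 was at 169 CPM in MYCN332, with the earliest onset, 118 CPM at 13 weeks, 95.6 to 184 CPM at 15 weeks, 171 CPM at 18 weeks, and 43.3 and 58.8 CPM at 21 and 24 weeks. MYCNC2ko144, at 18 weeks, was thus among the early tumors for this gene.

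Whole chromosomes shifted between tumors, and these shifts moved with some of the differences. Of the genes tested, 13804 (98.9%) could be placed. In each tumor the median over a chromosome's genes of log2 CPM minus the mean of the 8 tumors was taken. In MYCN175 it was 0.39 on chromosome 1, 0.37 on chromosome 6, 0.25 on chromosome 3 and 0.22 on chromosome 11. In MYCNC2ko176 it was 0.39 on chromosome 14, 0.27 on chromosome 3 and 0.24 on chromosome 11. In MYCNC2ko144 it was -0.27 on chromosome 15 and -0.25 on chromosome 17. Among early tumors MYCNC2ko180 had 0.23 on chromosome 7 and 0.21 on chromosome 17, and MYCN391 0.23 on chromosome 3. Chromosome 15 was the only one of 20 on which all late tumors lay below all early ones. There MYCN175, MYCNC2ko144 and MYCNC2ko176 were at -0.04, -0.27 and -0.0008, and the early tumors at 0.02 to 0.12, so only MYCNC2ko144 lay far below. On chromosome 17 the classes overlapped, with MYCNC2ko176 at 0.0075 and MYCN391 at 0.003. Of 682 genes on chromosome 17, 69 lay lower in every late tumor than in every early one and 3 higher, and on chromosome 15 these counts were 42 and 1 of 534. On chromosome 11 the order was the reverse, with 44 higher and 11 lower of 1114. In either direction these were 10.6% of the genes on chromosome 17, 8.05% on chromosome 15 and 4.94% on chromosome 11, beside 4.23% of all genes tested. The median log2 fold change was -0.20 on chromosome 17 and -0.18 on chromosome 15, and 0.27 on chromosome 3, 0.21 on chromosome 1 and 0.20 on chromosome 11. Of the named lower genes, Slc29a1, Ng23 and Alk lie on chromosome 17 and Gramd4 lies on chromosome 15. Relative to their chromosome's median their log2 fold changes were -0.87, -1.44, -0.77 and -0.49. Of the named higher genes, Bmpr1b and Cxxc4 on chromosome 3 went from 1.85 to 1.58 and from 0.67 to 0.40 relative to the median, Ormdl1 on chromosome 1 from 0.71 to 0.50, and Prmt8 and Nfu1 on chromosome 6 from 3.71 to 3.53 and from 0.65 to 0.47. Other named differences became larger in size relative to the median. On chromosome 3, Fam160a1 went from -1.328 to -1.601 and Fbxw7 from -0.899 to -1.171, both being lower in late tumors. Efs on chromosome 14, also lower in late tumors, moved the same way. The part of these chromosome shifts in the differences between onset classes was not tested.

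**Figure D5:**
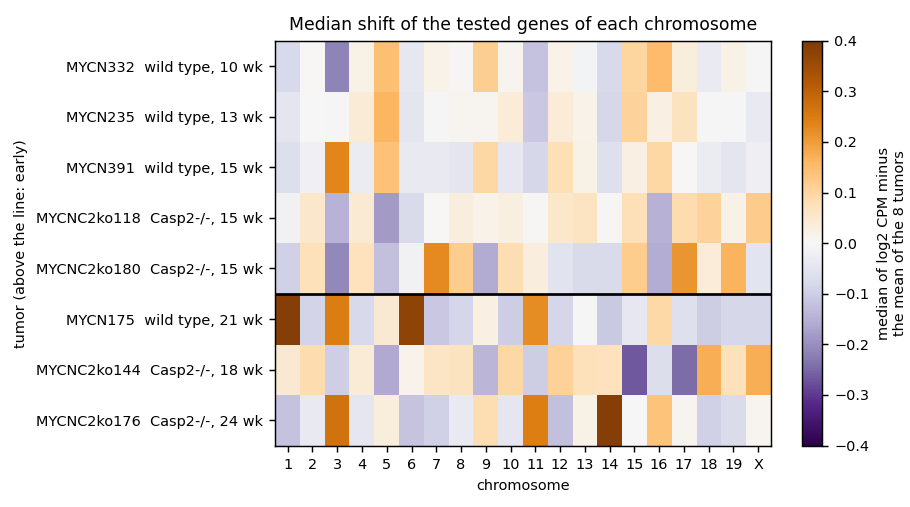
Median over the tested genes of each chromosome (columns) of log2 CPM minus the mean of the 8 tumors (color), for each tumor (rows, early above and late below the line, with genotype and age at onset). The largest values, 0.39, are on chromosome 1 in MYCN175 and chromosome 14 in MYCNC2ko176, and the lowest, -0.27, on chromosome 15 in MYCNC2ko144.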

How the data were processed

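The authors extracted RNA with Trizol, enriched poly(A) RNA, read 50 bases from 1 end of each fragment (HiSeq 2000), aligned them with STAR to mm10/GRCm38 and deposited unnormalized read counts for 23329 genes, for either strand and for each strand. Per the labels the processing tools were FastQC, STAR and edgeR, whose versions are not given in the sources used here. The second strand column was used. The strand columns hold nearly equal totals (49.1% to 49.3% of reads on this strand), so antisense and overlapping genes cannot be told apart. The 4 summary rows of each file were left out.

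Genes over 1 CPM in at least 3 of the 8 tumors were tested in R 4.3.3 with edgeR 4.0.16 (TMM scaling, quasi-likelihood F test, terms genotype and onset class, Benjamini-Hochberg FDR). Log2 CPM used a prior count of 2. Standard errors are Wald errors. The study lists each tumor as a different mouse. Pairs of tumors of a class differed by 17.0 to 93.7 chi-square units per degree of freedom, so no library is a copy. Limma 3.58.1 (voom) and DESeq2 1.42.0 were alternatives. The procedure was tested on simulated data. Named genes were the 15 with the smallest p in each direction among genes of at least 1 CPM without overlap (gene models named Gm or Rik, Y-linked genes and Xist left out), Casp2, Mycn, Xist and Y-linked genes as checks of the labels, up to 4 of each list plus members that define a cell type, the 5 smallest interaction p-values, and up to 6 genes named by the study. The onset classes, members and lists were chosen with earlier results of these data known. Sex was taken from the study's sample summary, positions from GENCODE M21 and promoters from RefSeq. Some genes that these rules chose are not reported here.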

Additional observations from a re-analysis of the deposited data

Results flagged for a closer look

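In 3 genes 1 early tumor stood apart from the other 4 by Dixon's test, out of 54 genes examined, and chance alone flags about 1 in 20 groups. Fbl was at 24.3 CPM in MYCNC2ko180 against 18.0 to 19.6 CPM in the other early tumors. Cldn5 was at 4.82 CPM in MYCNC2ko180 against 1.15 to 2.14 CPM. C1ql3 was at 5.61 CPM in MYCNC2ko118 against 0.430 to 1.58 CPM.

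The difference between late and early tumors in Sctr ran in opposite directions in the 2 genotypes, with a log2 interaction of -8.84 (SE 0.50). Over all settings tried, which included leaving out each tumor other than the single late wild type tumor, it was -9.40 to -8.48. The interaction rests on that tumor, MYCN175, and cannot be fitted without it, so leaving out the others does not test it.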

How the results depend on the processing

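The counts of genes called depended on the test. Called higher and lower were 15 and 20 genes by edgeR's likelihood ratio test, 21 and 36 by DESeq2, 4 and 8 with onset in weeks, 5 and 1 with no filter on low counts, 3 and 1 with all 15 tumors in the fit, and 1 and 1 by limma-voom. With 1 higher and 1 lower in the quasi-likelihood test as reported, the lower call was lost (0 genes) with library totals alone, without the genotype term and with sex added, and both were lost (0 and 0) among females alone (321 genes at unadjusted p under 0.05) and in the Casp2-/- tumors alone (388). In the last case Strc failed the filter of 3 tumors, and with a filter of 2 tumors, an alternative added after seeing the data, it had a log2 fold change of 6.68 and an FDR of 0.0589, so that 0 genes were called.

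Leaving out 1 tumor at a time, the calls ranged from 0 to 3 higher and from 0 to 4 lower. Without each of MYCN175, MYCNC2ko144 and MYCNC2ko176 in turn Strc failed the filter of 3 tumors, and 0 genes were called higher without MYCN175 (790 genes at unadjusted p under 0.05) or MYCNC2ko176 (1004). With a filter of 2 Strc was called in each case (FDR 0.0340, 0.00148 and 0.00239). Without MYCNC2ko144 2 genes were called higher and 4 lower. The call of Gm5506 was lost on leaving out any other tumor but MYCNC2ko144, and its log2 fold change ranged from -10.27 to -6.23 over all settings. The interaction called 148 genes by the likelihood ratio test, and 1 to 9 genes with a tumor left out. The distance between onset classes ranged from 0.103 to 0.422 with a tumor left out. It passed the test without MYCN175 (0.390) and without MYCNC2ko144 (0.422), each with an exact permutation p of 0.0476. That is the smallest p possible with a late tumor left out. None of the 54 genes whose fold changes are given reversed its direction in any alternative that tested it. Many of these genes were chosen for a small p or a lack of overlap in the same tumors, so their kept direction is no separate test. Of their values, 53 passed a threshold missed in the quasi-likelihood test as reported, and 17 missed one passed there. No paired analysis was possible because the labels give the tumors no replicate numbers. The fit had 5 residual degrees of freedom and a median standard error of 0.23 on the log2 scale.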
